A study of Mus musculus with 18 samples.

Results

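WNT ligands and WNT response genes were followed through the route from epiblast-like cells to primordial germ cell-like cells, in wild-type (WT) mouse cells and in cells labelled as knockouts (KO) of Esrrb, an orphan nuclear receptor of naive pluripotency. The 10 genes were chosen by symbol, with earlier results of these data known, from the deposited table of 25909 genes with an identifier. They were the ligands Wnt3 and Wnt7b, the transcription factors Lef1, Tcf7l1, Sp5 and Cdx2, the feedback inhibitors Axin2, Rnf43 and Notum, and the cyclin gene Ccnd1. All 10 had enough counts over the libraries to be tested. Each of 6 groups held 3 libraries, so 18 libraries of polyadenylated RNA were compared.

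All groups came from the embryonic stem cell line SGET (strain B6CBA/129) kept in 2i/L medium. Epiblast-like cells (EpiLC) were made on fibronectin with activin A and bFGF and were not sorted. Primordial germ cell-like cells (PGCLC) were made from EpiLC with BMP4, LIF, SCF, BMP8a and EGF, and were sorted as SG+ETlow at day 3 or day 5. The descriptions and deposited column names of all the late libraries say day 6, and they are called day 5 here. WT and KO groups had the same media and sort, so a step from EpiLC to day 3 also compares unsorted with sorted cells. KO replicates carry the line names A5, B1 and A2. WT replicates are numbered 1 to 3, and nothing states that they were separate cultures, so p-values may rest partly on technical spread. Neither the deleted part of Esrrb nor how the KO lines were made is stated in the labels.

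In canonical WNT signalling a secreted WNT protein binds a Frizzled receptor and an LRP co-receptor, which stops the destruction of beta-catenin. Beta-catenin then joins TCF/LEF factors on DNA and turns on target genes, among them inhibitors that damp the pathway again. In the mouse embryo Wnt3 is needed for the epiblast to become competent to form germ cells, and in embryonic stem cells WNT signalling favours naive pluripotency by lifting repression by Tcf7l1 from genes such as Esrrb.

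Start-site sequences were in RefSeq tables (build GRCm38.p6) for 7 of the 10 genes, at 11 start sites, each window running from 250 bases before to 50 bases after the start. Notum, Ccnd1 and Wnt7b had no entry. Windows were searched on both strands for the TCF/LEF core CTTTGAT or CTTTGAA, and for the ESRRB motif TCAAGGTCA or its core AAGGTCA, which the longer motif contains. A TCF/LEF core stood in 1 of the 7 genes, Sp5, against 9.88% of the 27025 genes in the table. An ESRRB core stood in 0 of the 7, against 5.38% of genes. The Sp5 window is shown around its match (chr2:70474779-70474865, plus strand, from 144 to 58 bases before the start) with the core in capitals. The 100 bases before the first listed start of Lef1 (chr3:131110197-131110296, plus strand) and of Axin2 (chr11:108920249-108920348, plus strand) are shown because these genes carry the calls described first, and they hold no match.
Sp5: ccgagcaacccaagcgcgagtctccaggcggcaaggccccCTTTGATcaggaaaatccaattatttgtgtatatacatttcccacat
Lef1: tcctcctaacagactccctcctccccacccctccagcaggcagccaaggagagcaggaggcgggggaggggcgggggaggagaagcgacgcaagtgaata
Axin2: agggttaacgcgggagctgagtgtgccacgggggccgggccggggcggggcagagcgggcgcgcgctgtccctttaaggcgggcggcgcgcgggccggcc
These letters describe the windows alone, and sites outside them were not searched.

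Libraries held 3032965 to 5286330 counts (median 4246221). Levels are deposited CPM (counts scaled to the library total), and a log2 fold change is given ± SE with an adjusted p from edgeR's quasi-likelihood test (n = 3 against 3). A gene is said to be called, to rise or to fall where its p, adjusted over the 12856 genes tested, was under 0.05. The cell types were checked on marker sums. The 9 formative epiblast genes, the members Lef1 and Tcf7l1 among them, summed to 5517 to 5659 CPM in WT EpiLC and 769 to 800 CPM in WT day 3 libraries. The 11 germ cell genes summed to 131 to 157 CPM and 1168 to 1208 CPM in the same groups. In KO the formative list summed to 2171 to 4449 CPM in EpiLC and the germ cell list to 869 to 1205 CPM at day 3. Esrrb counts were 127, 113 and 79 in WT EpiLC and 29 (A5), 18 (B1) and 167 (A2) in KO EpiLC. The EpiLC library labelled KO A2 thus held more than any WT EpiLC library. KO libraries kept Esrrb counts at every stage and the deleted part is not stated, so these counts do not test the label. KO PGCLC libraries held 359 to 933 Esrrb counts, which gave -2.13 ± 0.43 against WT at day 3 (adjusted p = 0.00554) and -1.89 ± 0.42 at day 5 (adjusted p = 0.00598). Pairs of KO libraries of 1 group differed by 3.88 to 33.6 times the sampling noise (chi-square over its degrees of freedom, 9 pairs), and pairs of WT libraries by 1.11 to 1.80 times. The median gene on chromosome 11, where Wnt3, Axin2, Rnf43 and Notum lie, was lower in line A2 at every stage. Its log2 ratio to the WT mean was -0.48 to -0.42 in all 3 A2 libraries, that of EpiLC included. It was 0.03 to 0.08 in A5 and B1 and -0.02 to 0.02 in WT libraries. The EpiLC library labelled KO A2 thus shared this shift with the other A2 libraries, and whether it also held other cells was not tested.

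Most of the 10 genes stood higher in KO PGCLC than in WT PGCLC, and Wnt7b stood lower there. At day 3, 6 of the 10 were called higher in KO and 0 lower (7 and 1 at an unadjusted p under 0.05 in edgeR, and 6 and 0 by DESeq2), where 5.00% of all tested genes were called higher and 5.18% lower. At day 5, 7 of the 10 were called higher and 1 lower, against 9.83% and 7.62% of all genes. The 10 genes were chosen with earlier results of these data known, so setting them against all genes is no test of an excess. In EpiLC Wnt7b alone was called, higher in KO (1 of 10, against 6.93% of all genes higher and 4.15% lower), while 4 members were higher at an unadjusted p under 0.05 in edgeR. The median log2 fold change of the 10 was 0.57 in EpiLC, 1.23 at day 3 and 1.57 at day 5, where the median of all genes was 0.01 each time. The CPM of KO and WT libraries did not overlap for 3 of the 10 genes in EpiLC, where 31.9% of all tested genes did not. They did not overlap for 8 of 10 at day 3 (36.5% of all genes), Cdx2 included, where KO A5 and WT 2 held 1 count each, and for 8 of 10 at day 5 (41.3%). Many of these calls were lost in fits without 1 library, as the plot of those fits shows. Calls over all genes fell as well without 1 WT library, from 1309 to between 621 and 692 at day 3. At day 5 they fell from 2244 to between 1303 and 1397. At day 3, 1 member was called without WT 2, WT 3 or KO A2, 2 without WT 1 or KO B1, and 6 without KO A5. With KO lines and WT numbers as a block 3 were called. Between KO and WT the block was fitted by limma-voom, here and below, so calls lost with it also met another test. At day 5, 4 were called without WT 2 or KO B1 and 5 without WT 1 or WT 3. In EpiLC 0 were called without any 1 of the WT libraries or with the block, and 2 without KO A5, while calls over all genes in EpiLC went from 1424 to between 181 and 198 without 1 WT library. The WT libraries are the same controls for all 10 genes of a stage, and expression in bulk cannot tell fewer cells of a type from less RNA per cell.

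**Figure D1:**
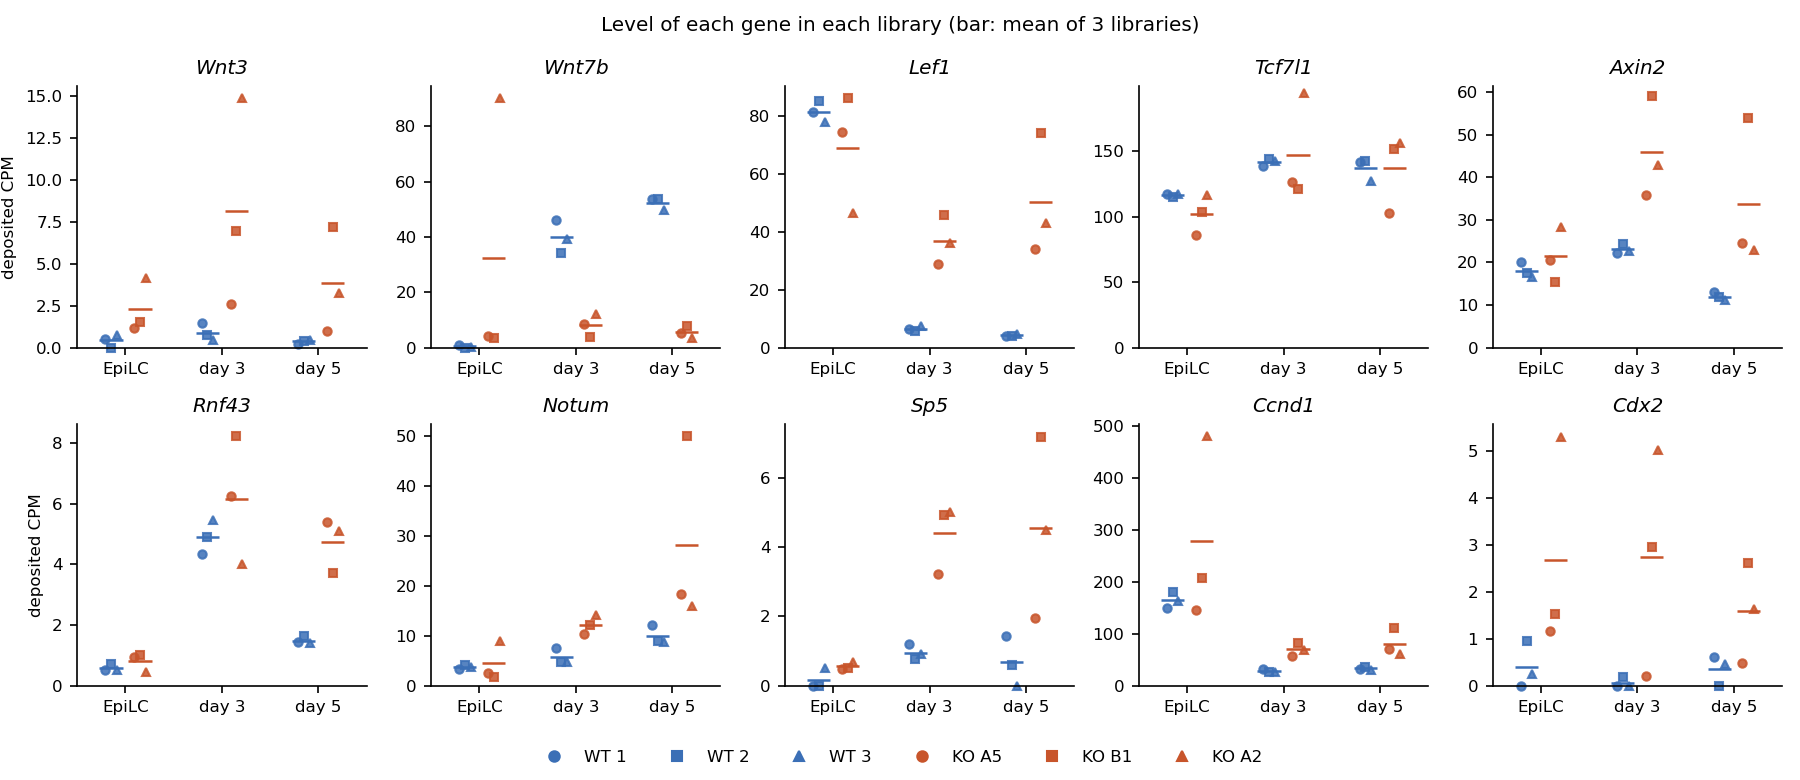
Deposited CPM (linear y axes) of the 10 genes in each of the 18 libraries by stage (x axis), with WT in blue, KO in orange, a marker shape per replicate and a bar at the mean of 3 libraries. Lef1 lies at 28.9 to 45.8 CPM in KO and 5.67 to 7.51 CPM in WT at day 3, and Wnt7b at 3.27 to 7.64 CPM in KO and 49.8 to 53.6 CPM in WT at day 5.

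Lef1 encodes a TCF/LEF factor that binds DNA with beta-catenin and is itself a WNT target (ENSMUSG00000027985, chromosome 3, 131110471 to 131224356, plus strand). In WT EpiLC it stood at 81.3, 85.2 and 78.0 CPM, and in KO EpiLC at 74.5 (A5), 86.3 (B1) and 46.5 (A2) CPM. KO and WT overlapped in EpiLC, with the library labelled KO A2 lowest, and the difference was not called (-0.29 ± 0.24, adjusted p = 0.432). At day 3 WT libraries held 6.26, 5.67 and 7.51 CPM, while KO held 28.9, 45.8 and 36.0 CPM. At day 5 WT held 4.08, 3.86 and 4.72 CPM, and KO 34.2, 74.0 and 43.1 CPM. Every KO PGCLC library lay above every WT PGCLC library, and B1 was the highest KO line at each stage. Lef1 was higher in KO by 2.51 ± 0.30 at day 3 (adjusted p = 7.01e-05) and by 3.58 ± 0.31 at day 5 (adjusted p = 2.12e-06). It was the 1 member called at day 3 in all 13 alternative analyses, and one of the 3 called in every alternative at day 5, with Axin2 and Rnf43. Fits without 1 library gave 2.34 to 2.67 at day 3 and 3.20 to 3.80 at day 5.

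Between EpiLC and day 3 Lef1 fell by 3.71 ± 0.29 on the log2 scale in WT (adjusted p = 8.28e-08) and by 0.90 ± 0.25 in KO (adjusted p = 0.00883). With only the 2 KO groups in the fit the KO fall missed the threshold (adjusted p = 0.0552). The difference between the genotypes in this step was 2.81 ± 0.38 (adjusted p = 0.00078), and 6.59% of all genes were called for such a difference in either direction. From day 3 to day 5 Lef1 was not called in WT (-0.64 ± 0.36, adjusted p = 0.474) or KO (0.43 ± 0.25, adjusted p = 0.531). The 5 genes whose log2 CPM followed Lef1 most closely over the 18 libraries, among 10108 genes of at least 5 CPM, were Lhpp (Pearson's r = 0.965), Sulf1 (0.951), Msh3 (0.948), Zfp644 (0.946) and Zfp799 (0.946). These libraries share stage, genotype and line, so the values are descriptions.

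**Figure D2:**
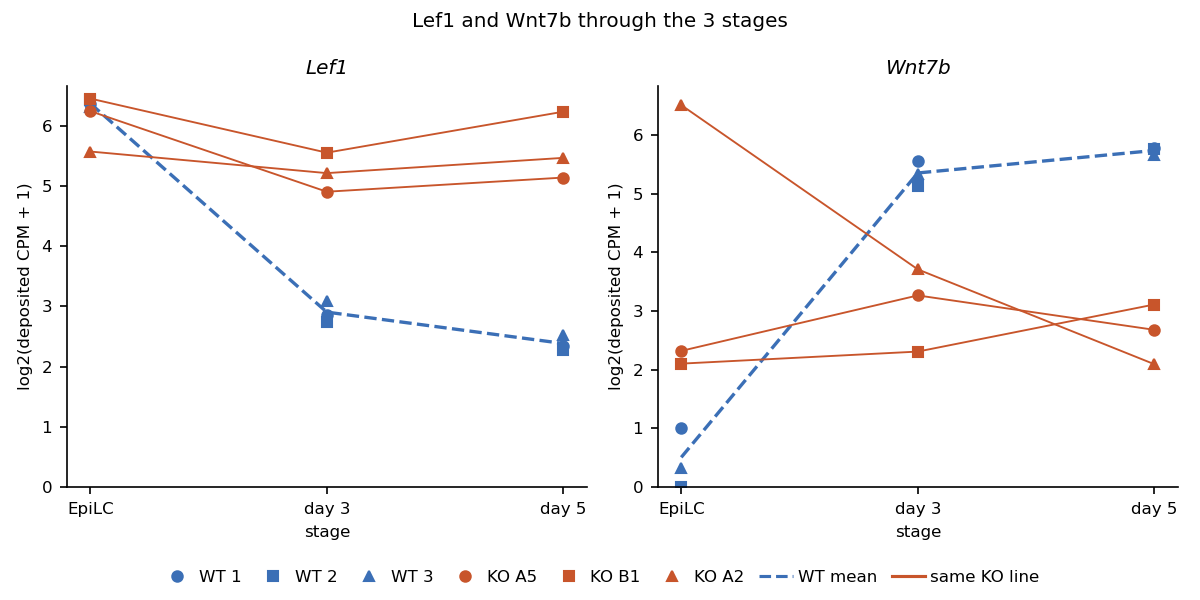
Log2 of deposited CPM plus 1 (y axis) of Lef1 and Wnt7b at each stage (x axis), with the WT mean as a dashed line and each KO line joined by a solid line. Lef1 is at 3.86 to 7.51 CPM in WT PGCLC and 28.9 to 74.0 CPM in KO PGCLC, and Wnt7b of the EpiLC library labelled KO A2 stands at 90.1 CPM.

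Tcf7l1 encodes the TCF factor that mainly represses its targets when WNT is absent (ENSMUSG00000055799, chromosome 6, 72626378 to 72789254, minus strand). It stood at 115 to 118 CPM in WT EpiLC, 139 to 144 CPM in WT day 3 and 128 to 143 CPM in WT day 5 libraries. KO libraries held 86.1 (A5), 104 (B1) and 116 (A2) CPM in EpiLC, and ranged from 121 to 194 CPM at day 3 and 103 to 156 CPM at day 5. The genotypes overlapped at every stage, but in EpiLC only through the library labelled KO A2, with A5 and B1 below all WT libraries. Differences were -0.24 ± 0.18 in EpiLC (adjusted p = 0.394), 0.07 ± 0.18 at day 3 (adjusted p = 0.855) and -0.00 ± 0.18 at day 5 (adjusted p = 0.995). In KO the step to day 3 was called higher (0.54 ± 0.18, adjusted p = 0.0254), a call lost without KO A5 or B1 of EpiLC or KO A2 of day 3 (adjusted p up to 0.159), and with only the KO groups fitted. In WT the same step gave 0.23 ± 0.18 (adjusted p = 0.293). Its closest genes over the 18 libraries were Samd1 (r = 0.882), Wdr82 (0.868), Ppp1r37 (0.857), Wdyhv1 (0.838) and Bckdha (0.826).

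Wnt3 encodes a canonical ligand of the early epiblast (ENSMUSG00000000125, chromosome 11, 103774150 to 103817957, plus strand), and its counts were low in every WT group. WT EpiLC held 0.507, 0 and 0.753 CPM, WT day 3 held 1.44, 0.757 and 0.455 CPM, and WT day 5 held 0.204, 0.406 and 0.472 CPM, from 5, 12 and 5 counts per group. KO lines A5, B1 and A2 held 1.18, 1.52 and 4.16 CPM in EpiLC, 2.59, 6.92 and 14.9 CPM at day 3, and 0.983, 7.21 and 3.27 CPM at day 5. All KO libraries lay above the WT libraries of their stage, but the KO lines differed widely, with A2 highest in EpiLC and at day 3 and B1 highest at day 5. Wnt3 was called higher in KO at day 3 (3.18 ± 0.79, adjusted p = 0.017) and day 5 (3.34 ± 0.95, adjusted p = 0.0238), and was not called in EpiLC (2.36 ± 1.03, adjusted p = 0.139). At day 3 the call was lost without KO A2 (2.36), WT 3 or WT 2, with an adjusted p of up to 0.109. At day 5 it was lost without KO B1 (2.52) or any 1 WT library, with an adjusted p of up to 0.111. With KO lines as a block it passed neither at day 3 (2.81, adjusted p = 0.0557) nor at day 5 (2.78, adjusted p = 0.103). The median gene of chromosome 11 differed between KO and WT by -0.06 at day 3 and -0.09 at day 5.

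The step from EpiLC to day 3 gave 0.98 ± 1.18 for Wnt3 in WT (adjusted p = 0.495) and 1.80 ± 0.70 in KO (adjusted p = 0.048). The KO value missed the threshold under RLE scaling, under DESeq2 and in 7 further alternatives, and the difference between genotypes in this step was not called (0.82 ± 1.54, adjusted p = 0.793). The genes closest to Wnt3 over the 18 libraries were Mll5 (r = 0.885), Ankhd1 (0.877), Adnp (0.874), Rab22a (0.872) and Irgq (0.868).

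Wnt7b encodes another WNT ligand (ENSMUSG00000022382, chromosome 15, 85535437 to 85582473, minus strand), and it moved the opposite way to the other called members in PGCLC. In WT EpiLC it stood at 1.01, 0 and 0.251 CPM, from 5 counts in all. WT libraries then held 46.2, 34.2 and 39.2 CPM at day 3 and 53.6, 53.6 and 49.8 CPM at day 5. In WT it rose by 6.44 ± 1.36 to day 3 (adjusted p = 0.000857) in every alternative, and day 5 was not called against day 3 (0.37 ± 0.75, adjusted p = 0.89).

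KO EpiLC held 17 (A5), 13 (B1) and 390 (A2) counts of Wnt7b, with 3.30 CPM in B1 and 90.1 CPM in A2, so 390 of the 420 counts of this group were in the library labelled KO A2. The difference from WT EpiLC was called (6.19 ± 1.38, adjusted p = 0.0157). Leaving out the library labelled KO A2 gave 3.00 (adjusted p = 0.0358). The call was lost without any 1 of the WT libraries (adjusted p up to 0.0709), with the EpiLC libraries fitted alone (adjusted p = 0.188) and with KO lines as a block (4.86, adjusted p = 0.214). In the library labelled KO A2 the summed CPM of 11 trophoblast genes was 1351, of 10 extraembryonic endoderm genes 2454 and of 10 fibroblast and mesenchyme genes 7371. WT EpiLC held 62.5 to 70.0, 246 to 259 and 592 to 637 CPM of these lists, and KO A5 and B1 100 to 217, 329 to 454 and 552 to 782 CPM. Of 10 tested trophoblast genes 6 were called higher in KO EpiLC, against 6.93% of all genes, with a median of 2.98. The count was 1 without the library labelled KO A2 or any 1 WT library, and 0 with the block. Elf5, the untested gene of this list, was at 0 in every EpiLC library, and Twist2 of the mesenchyme list was at 0 in WT EpiLC. The part of these cell types in the Wnt7b level was not tested.

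At day 3 KO libraries held 8.62, 3.96 and 12.1 CPM of Wnt7b, and at day 5 5.41, 7.64 and 3.27 CPM. All 6 lay below all 6 WT PGCLC libraries. Wnt7b was lower in KO at day 5 (-3.27 ± 0.90, adjusted p = 0.0208), a call lost without KO A5 or KO A2 (adjusted p up to 0.0952) and without the filter on low counts (adjusted p = 0.0513). At day 3 the difference missed the threshold (-2.22 ± 0.87, adjusted p = 0.117). It passed with the day 3 libraries fitted alone (adjusted p = 0.00188) and without line A2 throughout (-2.55, adjusted p = 5.78e-08). The step from EpiLC to day 3 in KO was -1.97 ± 0.87 (adjusted p = 0.0793) with all libraries and 1.24 (adjusted p = 0.0258) without the library labelled KO A2, so its sign rests on that library. The difference between genotypes in this step was -8.42 ± 1.64 (adjusted p = 0.00896), and it was called in every alternative, at -5.21 in the fit without 1 library that moved it most towards 0.

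**Figure D3:**
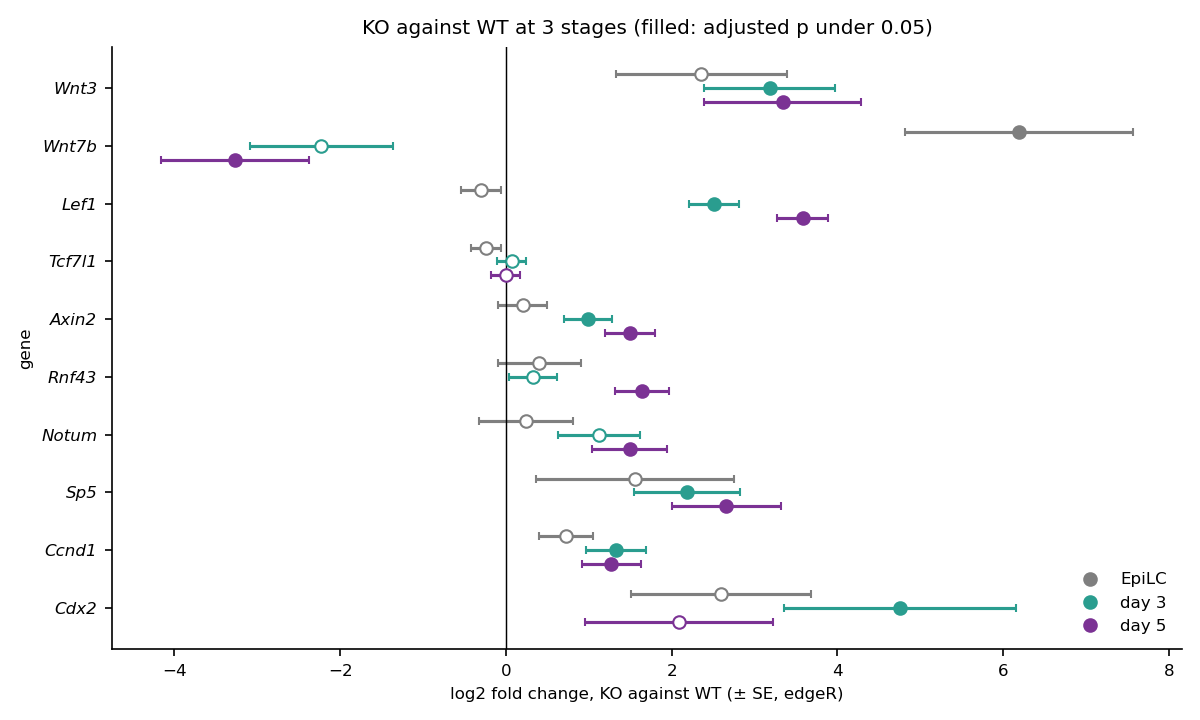
Log2 fold change of KO against WT (x axis, ± SE from edgeR) of the 10 genes (y axis) in EpiLC, at day 3 and at day 5, with filled points for adjusted p under 0.05. In PGCLC Lef1 is at 2.51 and 3.58 and Wnt7b at -2.22 and -3.27, while Tcf7l1 lies at 0.07 and -0.00.

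All 3 feedback inhibitors of the pathway were called higher in KO at day 5, and of these Axin2 was called at day 3. Axin2 encodes a scaffold of the complex that destroys beta-catenin and is a general readout of WNT signalling (ENSMUSG00000000142, chromosome 11, 108920349 to 108950783, plus strand). WT held 20.0, 17.6 and 16.6 CPM of Axin2 in EpiLC, 22.2, 24.4 and 22.8 CPM at day 3 and 13.0, 11.8 and 11.1 CPM at day 5. KO held 20.5, 15.5 and 28.2 CPM in EpiLC, 35.8, 59.0 and 42.8 CPM at day 3 and 24.6, 53.9 and 22.9 CPM at day 5. The genotypes overlapped in EpiLC and were apart at both PGCLC stages, with B1 the highest KO line there. Axin2 was higher in KO at day 5 by 1.49 ± 0.30 (adjusted p = 0.00284), called in every alternative, with 0.98 without KO B1 (adjusted p = 0.0113). At day 3 it was called (0.99 ± 0.29, adjusted p = 0.0363) but lost the call without any 1 library other than KO A5 (adjusted p up to 0.143).

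In KO, Axin2 rose from EpiLC to day 3 by 1.09 ± 0.29 (adjusted p = 0.00644), while in WT it was not called (0.30 ± 0.30, adjusted p = 0.4). The difference between these steps was not called (0.79 ± 0.41, adjusted p = 0.259). The genes most like Axin2 over the 18 libraries were Foxo1 (r = 0.899), Cask (0.888), Kif20b (0.880), Coro1b (0.877) and Cd2ap (0.863).

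Rnf43 encodes a membrane ubiquitin ligase that removes Frizzled receptors from the surface (ENSMUSG00000034177, chromosome 11, 87662722 to 87735539, plus strand). Its WT levels were 0.507, 0.714 and 0.502 CPM in EpiLC, 4.33, 4.92 and 5.46 CPM at day 3 and 1.43, 1.62 and 1.42 CPM at day 5. KO levels were 0.940, 1.02 and 0.462 CPM in EpiLC, 6.25, 8.24 and 4.03 CPM at day 3 and 5.41, 3.71 and 5.11 CPM at day 5. It rose to day 3 in both genotypes, by 2.98 ± 0.39 in WT (adjusted p = 1.03e-05) and 2.90 ± 0.36 in KO (adjusted p = 1.57e-05), in every alternative. Then WT libraries fell below all their day 3 libraries (-1.72 ± 0.32, adjusted p = 0.0234), a call lost without any 1 of the 6 libraries, while KO libraries overlapped between the days (-0.40 ± 0.29, adjusted p = 0.63). At day 5 Rnf43 was higher in KO than in WT by 1.65 ± 0.33 (adjusted p = 0.00252), called in every alternative, and at day 3 it was not called (0.33 ± 0.28, adjusted p = 0.516). The difference between genotypes in the step from day 3 to day 5 was 1.32 ± 0.43 (unadjusted p = 0.00742 from edgeR, adjusted p = 0.981).

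Notum encodes a secreted enzyme that removes the lipid from WNT proteins (ENSMUSG00000042988, chromosome 11, 120653788 to 120661175, minus strand). WT libraries held 3.29, 4.05 and 3.76 CPM in EpiLC, 7.46, 4.73 and 4.78 CPM at day 3 and 12.2, 8.93 and 8.73 CPM at day 5. KO libraries held 2.59, 1.78 and 9.01 CPM in EpiLC, 10.3, 12.2 and 14.1 CPM at day 3 and 18.4, 50.0 and 15.9 CPM at day 5. KO lay above WT at both PGCLC stages, and B1 stood far above A5 and A2 at day 5. At day 5 the difference was called (1.49 ± 0.45, adjusted p = 0.0305) but fell to 0.78 without KO B1 (adjusted p = 0.226), was lost without any 1 WT library and was lost with limma-trend. At day 3 it missed the threshold (1.13 ± 0.49, adjusted p = 0.164) and passed with the day 3 libraries fitted alone (adjusted p = 0.0197). In KO the step from EpiLC to day 3 was called higher (1.43 ± 0.51, adjusted p = 0.0335), a call lost without KO A5 or B1 of EpiLC or KO B1 or A2 of day 3, and with only the KO groups fitted.

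Sp5 encodes a transcription factor that answers WNT directly and tempers other targets (ENSMUSG00000075304, chromosome 2, 70474923 to 70477729, plus strand). Its counts were 0, 0 and 2 in WT EpiLC, 5, 4 and 4 in WT day 3, and 7, 3 and 0 in WT day 5 libraries. KO libraries held 2, 2 and 3 counts in EpiLC, 15, 15 and 20 at day 3, and 8, 33 and 22 at day 5. KO and WT did not overlap in CPM at day 3 or day 5, and WT 3 at day 5 held none. Sp5 was higher in KO at day 3 (2.19 ± 0.64, adjusted p = 0.0394) and day 5 (2.66 ± 0.66, adjusted p = 0.0103). The day 3 call was lost without any 1 library other than KO A5 and without the filter on low counts, and the day 5 call without KO B1 or WT 2 (adjusted p of at most 0.0516). In KO it rose to day 3 by 2.91 ± 0.71 (adjusted p = 0.00382) in every alternative. WT went from 2 to 13 counts, a ratio of 5.70 with a 95% counting interval of 1.29 to 52.1, and did not pass (adjusted p = 0.082).

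Ccnd1 encodes cyclin D1, which drives entry into the cell cycle and is a WNT target in some tissues (ENSMUSG00000070348, chromosome 7, 144929931 to 144939925, minus strand). Its exons overlap those of LTO1 on the opposite strand, which held 1375 counts over all libraries. WT libraries held 149, 180 and 164 CPM of Ccnd1 in EpiLC, 31.1, 26.7 and 25.7 CPM at day 3 and 32.6, 36.7 and 30.9 CPM at day 5. KO libraries held 146, 208 and 481 CPM in EpiLC, 57.3, 82.1 and 69.3 CPM at day 3 and 69.8, 111 and 61.5 CPM at day 5. The library labelled KO A2 stood apart in EpiLC, and without it the KO difference there went from 0.73 ± 0.32 (adjusted p = 0.149) to 0.04. Ccnd1 fell from EpiLC to day 3 by 2.62 ± 0.36 in WT (adjusted p = 2.09e-05) and by 2.01 ± 0.34 in KO (adjusted p = 0.000277), in every alternative. Without the EpiLC library labelled KO A2 the KO fall was -1.33, and the genotypes then differed in this step (1.29, adjusted p = 0.0146) where with all libraries they did not pass (0.60 ± 0.48, adjusted p = 0.484).

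In PGCLC every KO library lay above every WT library for Ccnd1. It was higher in KO by 1.33 ± 0.36 at day 3 (adjusted p = 0.0287) and by 1.27 ± 0.35 at day 5 (adjusted p = 0.0212). At day 3 the call was lost without any 1 library other than KO A5 and with KO lines as a block (adjusted p = 0.0687). At day 5 KO B1 and each of the WT libraries were needed for the call (adjusted p of up to 0.0952 without 1 of them).

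Cdx2 encodes a homeobox factor of trophoblast and of posterior mesoderm (ENSMUSG00000029646, chromosome 5, 147300805 to 147307270, minus strand). WT libraries held 0, 4 and 1 counts in EpiLC, 0, 1 and 0 at day 3 and 3, 0 and 2 at day 5. KO libraries held 5, 6 and 23 counts in EpiLC, 1, 9 and 20 at day 3 and 2, 12 and 8 at day 5. KO A5 and WT 2 held 1 count each at day 3, so the genotypes were apart there only through B1 and A2. Over the day 3 groups KO held 30 counts against 1, a ratio of 35.6 with a 95% counting interval of 5.92 to 1454, and edgeR called it (adjusted p = 0.0407). That call was lost without any 1 library other than KO A5, with limma-trend, without line A2 (adjusted p = 0.067) and with KO lines as a block (adjusted p = 0.145). It was not called in EpiLC (2.60 ± 1.08, adjusted p = 0.124) or at day 5 (2.09 ± 1.14, adjusted p = 0.226). The trophoblast list, which holds Cdx2, summed to 159 to 345 CPM in KO and 99.0 to 135 CPM in WT at day 3. At day 5 it summed to 109 to 169 CPM in KO and 92.5 to 133 CPM in WT.

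**Figure D4:**
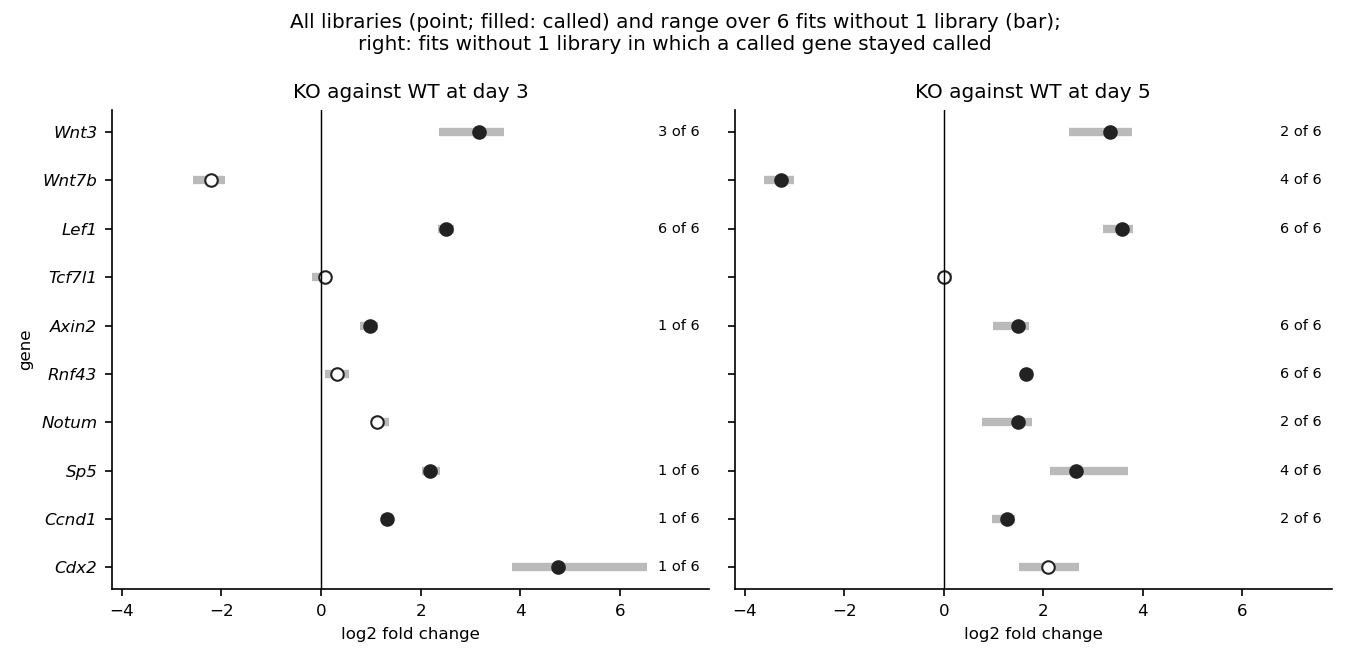
Log2 fold change of KO against WT (x axis) for each gene (y axis) at day 3 and day 5, with all libraries (point, filled where called) and the range over 6 fits that each leave out 1 library (bar). The number beside a called gene is the count of those 6 fits in which it stayed called, which is 6 for Lef1 at both days and 1 for Axin2, Sp5, Ccnd1 and Cdx2 at day 3.

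Marker lists of pluripotency and of other cell types also differed between KO and WT in some groups, and whether they moved with the member levels was not tested. The 12 naive pluripotency genes, Esrrb among them, summed to 2047 to 2096 CPM in KO and 3559 to 3660 CPM in WT at day 3. At day 5 they summed to 1861 (A5), 2723 (B1) and 2347 (A2) CPM in KO and 3370 to 3442 CPM in WT. Of these 4 were called lower in KO at day 3 and 3 at day 5, against 5.18% and 7.62% of all genes. Esrrb, the gene labelled as knocked out, is among them at both days. Its mean was 610 CPM in WT and 139 CPM in KO at day 3, and 593 and 160 CPM at day 5. Klf4 was also among them (-1.90 ± 0.36 and -1.44 ± 0.36), in every alternative. Of the 9 formative epiblast genes, which include the members Lef1 and Tcf7l1, 2 were called higher in KO at day 3 and 3 at day 5. The shares of all genes called higher were 5.00% and 9.83%. Utf1 alone of this list was called lower at both, where 5.18% and 7.62% of all genes were. The higher ones were Lef1, the DNA methyltransferase gene Dnmt3a (0.78 ± 0.16 and 0.74 ± 0.16, in every alternative) and, at day 5, the growth factor gene Fgf5, with 30 counts in KO and 3 in WT, a ratio of 10.4 with a 95% counting interval of 3.23 to 53.2 and a call lost without KO A5, WT 3 or WT 2 and with the block. The part of the pluripotent state in the member differences was not tested. The 10 gastrulation mesoderm genes summed to 30.0 to 59.4 CPM in KO and 20.2 to 21.9 CPM in WT at day 3, with A2 highest and Mesp1 and Msgn1 at 0 in all 6 libraries. At day 5 the sums overlapped, at 24.9 to 36.9 CPM in KO and 29.4 to 38.0 CPM in WT. The part of mesoderm genes in the member differences was not tested. The fibroblast and mesenchyme list summed to 1208 (A5), 1359 (B1) and 2364 (A2) CPM in KO and 1207 to 1270 CPM in WT at day 5, so A2 carried most of the excess and A5 lay within the WT range, and its genes Col1a2, Col3a1 and Twist2 were at 0 in WT. The part of mesenchyme genes in the day 5 differences was not tested. The mesoderm gene T, the classic WNT target of the primitive streak, is named after its values were seen: it held 19 counts in KO and 3 in WT at day 3, a ratio of 7.52 (95% counting interval 2.22 to 39.7), too few to enter the test.

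In WT the change from EpiLC to day 3 went both ways among the 10 genes. Rnf43 and Wnt7b rose and Lef1 and Ccnd1 fell (2 and 2 of 10), where 29.0% of all genes were called higher and 28.5% lower. In KO, 6 of 10 were called higher, Axin2, Sp5, Rnf43, Notum, Wnt3 and Tcf7l1, and 2 lower, Lef1 and Ccnd1, against 20.6% and 21.4% of all genes. Lef1 and Wnt7b were the members called for a difference between these steps (2 of 10). From day 3 to day 5, 0 members were called higher and 1 lower in WT (background 0.288% and 0.482%), and 0 in KO (background 0.366% and 0.187%), where edgeR gave Notum alone an unadjusted p under 0.05 (0.0185), and DESeq2 called 0. For the difference between the genotypes in this later step 0 of 10 members and 0.00% of all genes were called by edgeR (DESeq2 called 11 genes of all), and 2 members had an unadjusted p under 0.05, Rnf43 and Lef1 (0.0279). With the 2 WT groups fitted alone, which leaves the KO libraries out of the estimate of spread, 5 members were called between day 3 and day 5. Lef1 (-0.64, adjusted p = 0.0306), Axin2 (-0.97, adjusted p = 1e-07) and Rnf43 were lower, and Notum (0.82, adjusted p = 0.00166) and Wnt7b (0.39, adjusted p = 0.000815) higher. Of all genes 3678 were called in that fit, and 99 in the fit of all libraries. Nothing states that the WT replicates were separate cultures, so the p-values of the WT fit may rest on technical spread.

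Levels of different genes were set against each other as mean CPM per kilobase of merged exon (± SD). In WT EpiLC the order was Ccnd1 (34.8 ± 3.29), Tcf7l1 (29.7 ± 0.34), Lef1 (9.28 ± 0.41), Axin2 (3.28 ± 0.32) and Notum (1.54 ± 0.16), with the other 5 at most 0.18. In WT day 5 it was Tcf7l1 (35.0 ± 2.17), Wnt7b (10.7 ± 0.45), Ccnd1 (7.10 ± 0.64), Notum (4.14 ± 0.82), Axin2 (2.17 ± 0.18) and Lef1 (0.48 ± 0.05). In KO day 5 Tcf7l1 (34.9 ± 7.54) and Ccnd1 (17.2 ± 5.67) led, followed by Notum (11.7 ± 7.89), Axin2 (6.14 ± 3.17) and Lef1 (5.74 ± 2.38). Spreads of neighbours overlapped from Ccnd1 down to Lef1, and the Notum mean rests on B1, which held 50.0 CPM against 18.4 and 15.9 CPM in the other 2 lines. Wnt7b (1.11 ± 0.45) stood near Wnt3 (1.24 ± 1.02) there.

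The pathway as a whole was read from lists of genes by role. Of all tested genes 5.00% were called higher in KO at day 3, 9.83% at day 5 and 6.93% in EpiLC. The lists too were chosen with earlier results of these data known, so these shares are no test of an excess. Of 25 WNT response genes 16 could be tested, and 7 were called higher in KO at day 3 and 7 at day 5, of which 5 and 6 are members described above, with 0 lower each time (also at an unadjusted p under 0.05) and medians of 1.10 and 1.34. In EpiLC Tnfrsf19 alone was called, lower in KO (-0.82), a call lost without any 1 WT library, and 4 were higher at an unadjusted p under 0.05. At day 3 the count was 2 without any 1 WT library or KO A2, 3 without KO B1, 4 without the filter on low counts and 4 with KO lines as a block. At day 5 it was 4 without WT 2. Beyond the members these calls were Tnfrsf19 at both days and Myc at day 3. Tnfrsf19, a receptor gene induced by WNT, was higher in KO at day 3 (1.07, adjusted p = 0.00194) and day 5 (1.30, adjusted p = 0.000219) in every alternative. Its step from EpiLC to day 3 differed between genotypes by 1.89 ± 0.27 (adjusted p = 0.00103). Myc, a growth regulator, was called at day 3 (1.83 ± 0.53, adjusted p = 0.0377) and lost the call without any 1 library other than KO B1, and with KO lines as a block (adjusted p = 0.0833).

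Among the 19 ligands 6 could be tested, and in KO 2 were called higher at each stage and 1, Wnt7b, lower at day 5. The 19 ligands summed to 23.4 to 45.8 CPM in KO and 44.1 to 55.1 CPM in WT at day 3, and to 20.0 to 30.8 CPM in KO and 60.5 to 63.1 CPM in WT at day 5. Wnt7b alone made up 34.2 to 46.2 CPM of the WT sums at day 3 and 49.8 to 53.6 CPM at day 5. In KO it made up 3.96 to 12.1 and 3.27 to 7.64 CPM, so the lower KO sums do not describe the other ligands. In EpiLC the called ligands were Wnt7b and Wnt9a (3.22 ± 0.85), and the Wnt9a call was lost without the library labelled KO A2 or any 1 WT library, and with the block (adjusted p = 0.196). At day 3 and day 5 they were Wnt3 and Wnt5a, a ligand best known for beta-catenin independent signalling. Wnt5a held 32 counts in KO and 5 in WT at day 3 (2.90 ± 0.76, adjusted p = 0.0226). At day 5 it held 34 and 3 counts, a ratio of 11.8 with a 95% counting interval of 3.70 to 59.9 (adjusted p = 0.00965 in edgeR, called in every alternative). The day 3 call was lost without WT 1, WT 3, KO B1 or KO A2. Wnt8a fell from EpiLC to day 3 in both genotypes, by 5.13 ± 0.44 in WT and 4.35 ± 0.44 in KO on the log2 scale. Of the 2 genes needed to make and release WNT, Porcn, which adds the lipid to WNT proteins, was higher in KO at day 5 (1.57 ± 0.30, adjusted p = 0.00196) in every alternative, with 49.5 to 115 CPM in KO and 22.7 to 27.3 CPM in WT. It rose from EpiLC to day 3 by 2.35 ± 0.37 in WT and 4.03 ± 0.39 in KO, and stood at 22.3 to 27.9 CPM in WT and 38.2 to 54.9 CPM in KO at day 3, which was not called. Wls, which carries WNT proteins to the surface, was called higher in KO EpiLC (2.59 ± 0.72, adjusted p = 0.0326), a call lost without the library labelled KO A2 or any 1 WT library, and with the block (adjusted p = 0.17).

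All 16 WNT receptor genes were tested, and 1 was called higher in KO in EpiLC (Fzd1, lost without the library labelled KO A2 or any 1 WT library), 2 at day 3 and 4 at day 5, with the EpiLC count at the share of all genes. Fzd2, a Frizzled receptor, was higher in KO at day 5 (1.31 ± 0.30, adjusted p = 0.00673), as was Ror2, a receptor for Wnt5a (0.80 ± 0.18, adjusted p = 0.00549), both in every alternative. At day 5 Ptk7 (0.74 ± 0.19) and Lrp5 (0.31 ± 0.10) made up the 4, and 2 were left without WT 1 or without KO A2. The day 3 calls of Fzd4 and Ror2 were each lost without 5 of the 6 libraries, and that of Fzd4 with the block (adjusted p = 0.137). In the step from EpiLC to day 3 Fzd2 fell by 3.12 ± 0.26 in WT and 2.77 ± 0.27 in KO on the log2 scale, while Fzd5 rose by 1.70 ± 0.27 and 1.69 ± 0.27. Of 10 tested surface or secreted inhibitors 1 was called higher in KO at day 3 and 3 higher and 1 lower at day 5, which were Dkk3, Rnf43, Notum and, lower, Sfrp4 (-1.54, lost in 5 alternatives, the block among them). Dkk3, a member of the Dickkopf family, was higher at both (1.95 ± 0.40, adjusted p = 0.00583, and 1.85 ± 0.36, adjusted p = 0.00223), in every alternative. Medians of the 3 tested R-spondin and LGR genes were 0.51 in EpiLC, 0.34 at day 3 and 1.56 at day 5, with 0 called between KO and WT by edgeR at each stage, and 1, 0 and 0 at an unadjusted p under 0.05.

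In the destruction complex and Dishevelled list 14 genes were tested, with 3 called higher in KO EpiLC (Tnks, Tnks2 and Axin1, all lost without any 1 WT library), 1 higher and 1 lower at day 3 and 1 higher and 1 lower at day 5, PGCLC counts near the share of all genes (5.18% and 7.62% lower). The higher member in PGCLC was Axin2 and the lower was Gsk3b, a kinase that marks beta-catenin for destruction. Its log2 fold change was -0.49 ± 0.14 at day 3 (adjusted p = 0.0329), lost without any 1 library other than KO A5, and -0.61 ± 0.14 at day 5 (adjusted p = 0.00552), called in every alternative. Gsk3b lies on chromosome 16, whose median gene stood at a log2 ratio of -0.46 to -0.40 to the WT mean in the B1 and A2 libraries of all stages and -0.03 to 0.04 in A5, and the part of this shift in the Gsk3b value was not tested. Of 13 nuclear effectors Lef1 and Tle4, a co-repressor that binds TCF factors, were called higher at day 3 and day 5 (Tle4 0.60 ± 0.17 and 0.71 ± 0.17). The Tle4 call at day 3 was lost without KO A2 or any 1 WT library.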

How the data were processed

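The submitters' processing notes name Trim Galore 0.4.3.1 and the builds mm10 and GRCm38.p4. For the aligner, counter, gene annotation and strand setting nothing is stated (not given in the sources used here). The authors deposited raw counts per gene and CPM values, and the deposited CPM equalled counts over the library total. Rows without a gene identifier (56 of 25965, 0.0559% to 0.0828% of counts) were left out. Columns of other samples numbered 0.

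Genes were tested with edgeR's quasi-likelihood test (edgeR 4.0.16, R 4.3.3, robust) on the deposited counts, after filterByExpr and TMM scaling (factors 0.964 to 1.04), in 1 fit of 6 group means over 18 libraries with 12 residual degrees of freedom. P-values were adjusted by Benjamini and Hochberg's method over the 12856 genes tested, within each of 9 comparisons. Counting intervals are exact binomial, and intervals cover counting error only. Libraries of 3032965 to 5286330 counts limit precision for genes of a few counts, so no fold is given where both groups held at most 3.

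Alternatives were RLE scaling, no filter, DESeq2 1.42.0, limma-trend 3.58.1 on log2 of CPM plus 1, a fit of the compared groups alone, each library left out in turn, line A2 left out, and a replicate block. The block took KO lines and WT numbers as units. For KO against WT it was fitted by limma-voom with a shared correlation within units (0.168), so both the test and the block changed. For steps between stages, and their differences, it was a term for each unit in the edgeR fit. KO line names recur across stages and pair the libraries by line: their deviations correlated at 0.110 to 0.588 in 9 of 9 pairs. WT numbers did not pair libraries (-0.05 to 0.07, 0 of 9 pairs over 0.1).

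The members and gene lists were chosen with earlier results of these data known. Named genes were all members, Esrrb, up to 4 called genes of largest change per list and comparison, and the 5 genes most correlated with each of 4 members (log2 CPM with a prior count of 2, mean of at least 5 CPM, predicted gene models passed over). Fits of list genes under the alternatives, and chromosome medians, were added after the data were seen. Figures were drawn with matplotlib 3.10.9.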

Additional observations from a re-analysis of the deposited data

Results flagged for a closer look

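Lef1 and Wnt7b changed differently in KO and WT in the step from EpiLC to day 3, by the interaction term of edgeR's quasi-likelihood test. For Lef1 the KO step minus the WT step was 2.81 on the log2 scale (adjusted p = 0.00078), and it was 2.59 without line A2 and 2.60 to 2.99 in fits without 1 library. For Wnt7b the KO step minus the WT step was -8.42 (adjusted p = 0.00896), and it was -5.55 without line A2 and -9.97 to -5.21 in fits without 1 library.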

How the results depend on the processing

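Of 1272 member values under the alternatives, 1175 kept their side of the threshold, 79 lost a call, 17 gained one and 1 reversed. Values uncalled in both fits were counted as keeping their side whatever their sign, and 54 values uncalled in both fits changed sign. The reversed one was Wnt7b from EpiLC to day 3 in KO, at 1.24 without the library labelled KO A2 and -2.50 without KO A5 of EpiLC. Wls, which is no member, went to 0.0962 (adjusted p = 0.847) in the same step and fit, with -2.34 at the other end of its fits without 1 library. Members called between KO and WT in EpiLC numbered 0 with only those groups fitted (0 of all genes) and 2 without line A2, 1 higher and 1 lower. They numbered 0 with the replicate block and 0 to 2 in fits without 1 library. At day 3 they numbered 3 with the replicate block and 1 to 6 without 1 library, and at day 5 4 to 7 without 1 library. The step from EpiLC to day 3 in KO gave 4 with only those groups and 5 to 9 without 1 library. From day 3 to day 5, WT gave 5 with only those groups and 0 in all 6 fits without 1 library, and KO gave 1 without line A2. The replicate block changed no other count of members by over 1.5 times. Counts over all genes moved too: 1424 in EpiLC went to 596 without the library labelled KO A2, 2473 without KO B1 and 911 with the block; 1309 at day 3 went to 621 without WT 2 and 2716 without line A2; 2244 at day 5 went to 1303 without WT 3 and 3887 without line A2. The step to day 3 in KO went from 5394 to 2161 with only those groups, and its difference from WT from 847 to 361 without WT 2 of day 3 and 1912 without line A2. From day 3 to day 5, WT went from 99 to 10 without WT 2 of day 3 and 3678 with only those groups, KO from 71 to 0 with only those groups and 873 without line A2, and the difference from 0 to 85 without line A2. The cause was not tested. Wnt3, Sp5 and Cdx2 held 1 to 13 counts per WT group, so depth limits their folds. Depth also limits folds against EpiLC for Rnf43, with 7 counts in WT EpiLC and 10 in KO EpiLC. Wnt7b held 5 counts in WT EpiLC, on which its folds against that group and its difference between genotypes in the step to day 3 rest.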
